A study of Mus musculus with 6 samples.

Results

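The genes described are 10 regulators of the G1 phase of the cell cycle, chosen by name, out of 16557 genes listed in the UMI tables of 6 mouse rhabdoid tumors. They are the D cyclins *Ccnd1*, *Ccnd2* and *Ccnd3*, the kinases *Cdk4* and *Cdk6*, the CDK inhibitors *Cdkn1a* (p21), *Cdkn1b* (p27) and *Cdkn2a* (p16Ink4a and p19Arf), the cyclin E gene *Ccne1* and the p53 antagonist *Mdm2*. For each of them, UMIs (unique molecular identifiers, each marking 1 captured transcript) were summed per tumor over tumor cells, cycling or resting, and over the immune cells of the same tumor.

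D cyclins bind CDK4 and CDK6 and start the phosphorylation of the retinoblastoma protein, which releases E2F factors and, with them, the transcription of cyclin E and of the genes of DNA replication. INK4 proteins such as p16Ink4a block CDK4 and CDK6, p21 and p27 bind cyclin-CDK complexes and restrain CDK2, and p19Arf shields p53 by inhibiting MDM2. In rhabdoid tumors this axis is of interest because SMARCB1, the SWI/SNF chromatin remodeling subunit that they lack, is known to regulate the gene of p16Ink4a and that of cyclin D1.

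The series holds 3 MYC spinal tumors (mice 1172, 1177 and 1232) and 3 extracranial rhabdoid tumors, eRT (mice 1148, 568 and 593). Every mouse carried floxed *Smarcb1* alleles and a tamoxifen-inducible Cre recombinase, which was switched on *in utero* by 1 dose of 50 mg/kg tamoxifen at day 6.5 after conception. In the 3 MYC spinal mice, taken at 19, 26 and 17 weeks, and in eRT 1148, a tumor at a gland taken at 17 weeks, Cre came from the ubiquitous Rosa26 locus (Rosa26-cre). The eRT of 568, in the jaw at 29 weeks, and of 593, at the shoulder at 22 weeks, arose in the Sox2-cre strain, in which Cre is active in *Sox2*-expressing cells. Normal tissue and tumors that keep *Smarcb1* were not analysed here, and each tumor is 1 animal, so subtype and site cannot be told apart, while Cre strain overlaps with subtype in part, eRT 1148 sharing Rosa26-cre with the MYC spinal mice.

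After filtering, 22163 cells remained, with 3841706 to 26184224 UMIs per tumor. Clusters almost without *Smarcb1* UMIs and not immune-like by their markers were taken as tumor cells, 2456 in all. A neutrophil-like eRT cluster of 208 cells had 1 *Smarcb1* UMI where 10.4 would be expected and stayed with the immune-like cells, an exception set after it was seen. They numbered 95, 15 and 1452 in MYC spinal 1172, 1177 and 1232 and 68, 201 and 625 in eRT 1148, 568 and 593, against 1348 to 5508 immune-like cells per tumor. *Smarcb1* stood at 0 to 6.41 CPM (the gene's UMIs scaled to a sum of 1000000 UMIs) in tumor cells and at 27.3 to 59.7 CPM in immune-like cells, which restates the rule. MYC spinal 1177 gave 44738 tumor cell UMIs, so that 3 UMIs there equal 67.1 CPM, and 11 neutrophil markers summed to 17457 CPM in its 15 tumor cells, against 144 to 938 CPM in the other tumors. The 8 leukocyte markers summed to 104 to 603 CPM in tumor cells and to 6947 to 11408 CPM in immune-like cells, and the part of such RNA in the results was not tested.

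*Promoters of the members.* Of the 10 members, 8 matched the RefSeq promoter table (GRCm38.p6, 250 bases before and 50 after the start site), with 11 start sites. *Cdkn2a* has 2 of them, which is why both are shown: the upstream start gives the p19Arf transcript and the downstream start the p16Ink4a transcript. Both transcripts share their 3′ end, and a 3′ library counts them together. The promoters of *Cdk4* and *Ccne1* are shown because these genes moved most in cycling immune-like cells. Capitals mark matches, on either strand, to the E2F-like words TTTCCCGC and TTTGGCGC, the E-box CACGTG and the GC box GGGCGG, and the only overlap among them in these 4 sequences is between adjoining GC boxes of *Cdk4*.
Cdkn2a, upstream start, chr4:89294570-89294869, minus strand: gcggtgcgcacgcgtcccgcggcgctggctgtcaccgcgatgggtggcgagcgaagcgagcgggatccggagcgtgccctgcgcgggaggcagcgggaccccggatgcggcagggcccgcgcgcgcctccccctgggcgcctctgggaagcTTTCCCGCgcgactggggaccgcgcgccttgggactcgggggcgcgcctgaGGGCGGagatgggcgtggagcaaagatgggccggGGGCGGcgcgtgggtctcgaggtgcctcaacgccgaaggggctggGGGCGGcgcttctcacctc
Cdkn2a, downstream start, chr4:89282143-89282442, minus strand: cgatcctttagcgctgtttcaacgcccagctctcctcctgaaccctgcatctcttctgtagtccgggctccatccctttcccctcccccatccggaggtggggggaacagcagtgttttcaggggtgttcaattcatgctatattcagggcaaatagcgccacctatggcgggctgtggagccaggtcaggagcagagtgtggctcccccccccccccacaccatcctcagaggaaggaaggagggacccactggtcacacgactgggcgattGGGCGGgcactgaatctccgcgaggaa
Cdk4, chr10:127063285-127063584, plus strand: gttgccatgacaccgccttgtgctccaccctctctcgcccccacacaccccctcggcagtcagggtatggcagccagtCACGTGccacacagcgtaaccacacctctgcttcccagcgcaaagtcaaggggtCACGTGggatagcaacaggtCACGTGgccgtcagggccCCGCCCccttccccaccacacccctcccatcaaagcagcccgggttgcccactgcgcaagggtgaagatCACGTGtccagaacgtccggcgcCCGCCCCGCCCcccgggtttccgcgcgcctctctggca
Ccne1, chr7:38107441-38107740, minus strand: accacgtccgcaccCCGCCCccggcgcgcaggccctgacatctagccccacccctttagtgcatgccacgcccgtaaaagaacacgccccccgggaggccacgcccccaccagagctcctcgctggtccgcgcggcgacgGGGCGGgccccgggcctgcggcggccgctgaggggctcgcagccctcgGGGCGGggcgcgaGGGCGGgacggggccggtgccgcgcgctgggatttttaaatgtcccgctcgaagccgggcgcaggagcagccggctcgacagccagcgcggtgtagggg

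The word TTTCCCGC occurred in 351 of 32851 promoters (1.07%) and, among the member promoters, in that of the upstream *Cdkn2a* start, where it lay 99 bases before the start site. TTTGGCGC, held by 0.514% of all promoters, was in none of the member promoters. CACGTG occurred in 7.15% of all promoters, and in those of *Cdk4* and *Cdk6*. *Cdk4* held it at 4 places, a number reached by 8 of the 32851 promoters (0.0244%). The GC box was in 35.7% of all promoters and in 9 of the 11 of members. A match is a run of letters and not a bound site, and no binding was measured.

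*Tumor cells against immune-like cells.* The question here was which of these regulators differed between the *Smarcb1*-negative and the immune-like cells within a tumor, and cells of other lineages entered no main test. *Ccnd1*, the gene of cyclin D1, and *Cdkn2a*, which restrains the kinases that cyclin D1 activates, were both higher in the tumor cells of every tumor. In edgeR's quasi-likelihood test on the sums, paired by tumor and with Benjamini-Hochberg adjustment over all genes, these were the 2 members called at an adjusted p under 0.05 among the 10 tested, with none called lower. Of all 12236 genes tested, 31.7% were called, 15.3% higher and 16.3% lower, and the median log2 fold change was 0.62 over the members and -0.04 over all genes.

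The MYC spinal tumors 1172, 1177 and 1232 had tumor cell levels of *Ccnd1* (chromosome 7, 144929931 to 144939925, minus strand) of 163, 402 and 758 CPM, and the eRT 1148, 568 and 593 had 628, 162 and 401 CPM. Immune-like cells held 35.3, 12.3 and 138 CPM in the MYC spinal tumors and 95.7, 29.1 and 112 CPM in the eRT. The lowest tumor cell value lay above the highest immune-like one, and the log2 fold change was 2.45 ± 0.33 (SE, n = 6 tumors, edgeR adjusted p = 0.000268). The 402 CPM of 1177 rest on 18 UMIs.

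*Cdkn2a* (chromosome 4, 89274471 to 89294653, minus strand) reached 121, 67.1 and 368 CPM in the MYC spinal tumor cells and, in those of the eRT, 111, 78.7 and 150 CPM. In immune-like cells the values were 7.18, 0.638 and 17.7 CPM and 27.5, 7.43 and 6.47 CPM. The groups again did not overlap, with a log2 fold change of 3.69 ± 0.44 (SE, n = 6, edgeR adjusted p = 0.000117). How many of all genes separate in this way was not counted, for *Ccnd1*, for *Cdkn2a* or in the comparisons below. The 6 fibroblast markers summed to 618 to 3107 CPM in tumor cells and to 1.28 to 26.9 CPM in immune-like cells, and their part in these results was not tested. An eRT tumor cell cluster of 716 cells itself took the fibroblast name by its markers. It counted as tumor because it had 11 *Smarcb1* UMIs where 193 would be expected. In eRT 593, 75 fibroblast-like cells that were not taken as tumor held 191 CPM of *Cdkn2a* and 221 CPM of *Ccnd1*, beside 150 and 401 CPM in its tumor cells, and 1002 CPM of *Cdkn1a*, beside 878 CPM. The *Cdkn2a* value of 1177 rests on 3 UMIs, and without that tumor *Cdkn2a* and *Ccnd1* were still called. In cells thinned to 1000 UMIs, 6.08% to 28.4% of tumor cells held a *Cdkn2a* UMI (unthinned 6.67% to 71.6%), against 0% to 3.12% of T- and NK-like cells (unthinned 0.408% to 5.62%), whose median depth was 519 to 2643 UMIs, compared with 2062 to 6141.5 UMIs in tumor cells.

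**Figure D1:**
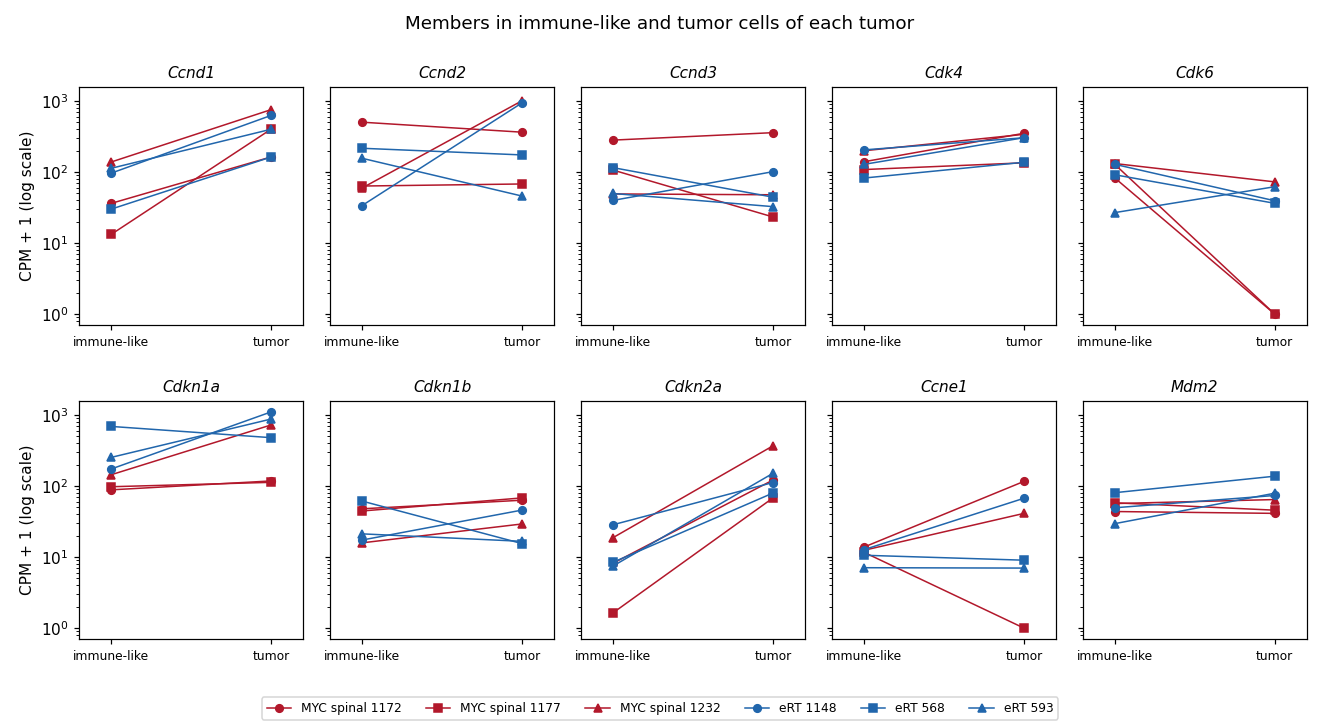
Level of each member in immune-like and tumor cells, as CPM + 1 on a log axis, with 1 line for each of the 6 tumors. All 6 lines of *Ccnd1* and *Cdkn2a* rise and their tumor cell points lie above every immune-like point, while the lines of *Ccnd2*, *Ccnd3*, *Cdkn1b* and *Ccne1* do not all move one way.

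The other D cyclins were not called. *Ccnd2* ranged over 364, 67.1 and 1012 CPM in MYC spinal and 944, 174 and 45.0 CPM in eRT tumor cells, so that both subtypes held a tumor near 1000 CPM and one under 70 CPM. Immune-like cells ranged from 32.8 to 503 CPM, overlapping them (log2 fold change 0.63 ± 0.97, SE, edgeR adjusted p = 0.688). The tumor cells of 1172 held 358 CPM of *Ccnd3* and those of the other 5 tumors 22.4 to 100 CPM, with immune-like cells at 39.0 to 281 CPM (-0.45 ± 0.37, edgeR adjusted p = 0.411). The immune-like cells of 1172 also had the highest *Ccnd3* and *Ccnd2* values of all 6 tumors, and 1044 of its 1348 immune-like cells were T- and NK-like.

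As a share of the D cyclin UMIs, which does not depend on scaling, *Ccnd1* made up 51.0% ± 26.2 (SD, n = 6) in tumor cells and 28.0% ± 24.9 in immune-like cells. *Ccnd2* made up 37.0% ± 20.6 and 41.5% ± 18.1, and *Ccnd3* 11.9% ± 14.3 and 30.5% ± 15.5. None of the differences passed the exact two-sided sign-flip permutation test over 6 tumors, whose smallest p is 0.0312 (p = 0.219, 0.719 and 0.0625, adjusted 0.328, 0.719 and 0.188). *Ccnd3* was the smaller share in tumor cells of 5 of 6 tumors, by 18.6 percentage points on average.

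The tumors differed widely in the D cyclin their tumor cells carried. In eRT 593, *Ccnd1* made up 83.9% of 1433 D cyclin UMIs and *Ccnd2* 9.42%. MYC spinal 1232 and eRT 1148, of different subtypes, had nearly the same make-up, with 55.7% and 56.4% *Ccnd2* and 41.7% and 37.5% *Ccnd1*. MYC spinal 1172 was the tumor with a large *Ccnd3* share, 40.5% of 484 UMIs, while that of 1177 rests on 22 UMIs. In cells thinned to 1000 UMIs, *Ccnd1* and *Ccnd2* were found together in 302 of the 1452 tumor cells of 1232, where 242 would be found if they were independent, but in eRT 593 in 2 cells, where 3.64 would be. In eRT 568 the tumor cells fell in 2 clusters, of 135 and 66 cells, with *Ccnd1* at 32.8 and 246 CPM and *Cdkn1a* at 32.8 and 766 CPM, and these 2 clusters were picked out after their values were seen.

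**Figure D2:**
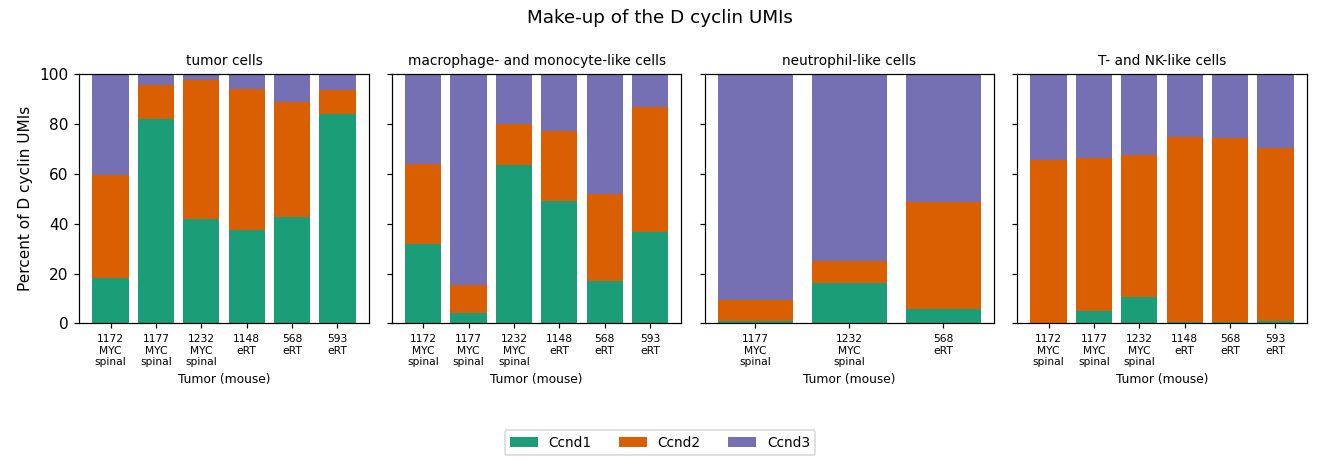
Percent of the summed *Ccnd1*, *Ccnd2* and *Ccnd3* UMIs that each gene contributed, with 1 bar for each tumor with at least 10 such cells and 1 panel each for tumor, macrophage- and monocyte-like, neutrophil-like and T- and NK-like cells. *Ccnd1* is 18.4% to 83.9% of the tumor cell bars but at most 10.5% of the T- and NK-like bars, which are mostly *Ccnd2*.

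Neither of the kinases that D cyclins activate was called. *Cdk4* levels were 351, 134 and 339 CPM in the MYC spinal tumor cells and 303, 137 and 304 CPM in the eRT, with immune-like cells at 81.5 to 204 CPM. It was higher in the tumor cells of 6 of 6 tumors, by 0.61 ± 0.25 on the log2 scale (edgeR adjusted p = 0.0826, 0.00787 with DESeq2 and 0.023 without MYC spinal 1177). *Cdk6* had no UMI among the 547014 tumor cell UMIs of 1172, which allows up to 5.48 CPM, or among those of 1177, and stood at 71.8, 38.5, 35.4 and 61.3 CPM in 1232, 1148, 568 and 593. The immune-like cells of these tumors held 25.9 to 131 CPM (-1.60 ± 0.71, edgeR adjusted p = 0.116, 0.0306 with DESeq2 and 0.0308 without eRT 593, where *Cdk6* was higher in tumor cells).

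*Cdkn1a*, a transcriptional target of p53, was not called either. Its tumor cell level was 117, 112 and 724 CPM in MYC spinal and 1107, 479 and 878 CPM in eRT, and its immune-like level 87.4, 96.8 and 143 CPM and 173, 690 and 252 CPM. Tumor cells were higher in 5 of 6 tumors, all but eRT 568, where macrophage- and monocyte-like and neutrophil-like cells held 1166 and 841 CPM (log2 fold change 0.97 ± 0.45, edgeR adjusted p = 0.135). *Cdkn1b* was low everywhere, at 14.5 to 67.1 CPM in tumor cells and 14.9 to 60.4 CPM in immune-like cells (-0.05 ± 0.38, edgeR adjusted p = 0.950). *Mdm2*, another p53 target, was at 40.2 to 137 CPM in tumor cells and 28.5 to 79.6 CPM in immune-like cells (0.29 ± 0.31, edgeR adjusted p = 0.526).

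*Ccne1* split the tumors. Tumor cells of MYC spinal 1172 and 1232 and of eRT 1148 had 115, 40.2 and 66.2 CPM, those of eRT 568 and 593 had 8.03 and 5.99 CPM, and those of 1177 had 0 UMIs. The 3 tumors at 40.2 CPM or more are of the Rosa26-cre strain and the 2 low eRT of the Sox2-cre strain, a grouping seen after the values and not tested. MYC spinal 1177, where 3 UMIs equal 67.1 CPM, is of the Rosa26-cre strain as well. In 1232, a cluster of 96 tumor cells held 155 *Ccne1* UMIs, at 236 CPM. The other 1356 tumor cells of 1232 held 165 UMIs, at 22.6 CPM. Immune-like cells lay between 6.08 and 12.8 CPM, and over all cells *Ccne1* was not called (1.25 ± 0.50, edgeR adjusted p = 0.0813).

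Of 64 other genes of the pathway, 62 were tested and 11 were called higher and 5 lower in tumor cells, counts to be read against the 15.3% higher and 16.3% lower of all genes. The p53 list holds *Trp53* itself beside p53 targets. This list had 9 of 20 higher and 2 lower, led by *Phlda3* (4.82 ± 0.49), an inhibitor of AKT, the death receptor *Eda2r* (4.82 ± 1.06) and *Perp* (3.50 ± 0.95), all by edgeR. Its lower genes were *Pmaip1*, the gene of NOXA, at -2.40 and *Sesn1* at -1.37. Among the other CDK inhibitors, *Cdkn2b* (p15), the neighbor of *Cdkn2a*, was higher by 2.09 ± 0.42 and *Cdkn2d* (p19Ink4d) lower by -1.11 ± 0.35. Of the Rb and E2F list none was higher and 2 of 15 were lower, *Mybl2* at -2.30 ± 0.58 and *Rb1* itself at -1.78 ± 0.41. By the gate described below, 7.36% to 44.7% of immune-like cells and 10.7% to 33.3% of tumor cells were cycling. The part of these shares in the pathway calls was not tested. *Wee1*, whose kinase inhibits CDK1, was higher by 2.10 ± 0.40, and none of the 8 turnover genes was called, with DESeq2 calling 14 pathway genes higher and 5 lower in all.

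*Tumor cells against single kinds of immune-like cells.* Since immune-like cells are a mixture, tumor cells were set beside 3 kinds in 1 fit over all kinds of cell, with 10276 genes tested. Neutrophil-like cells came from 3 tumors (1177, 1232 and 568). Against macrophage- and monocyte-like cells, 5 of 10 members were called higher and 0 lower by edgeR, where 41.8% of all genes were called, 20.4% higher and 21.4% lower. Against neutrophil-like cells 4 were higher and 1 lower (all genes 40.9%, 22.4% higher and 18.5% lower), and against T- and NK-like cells 4 were higher and 2 lower (all genes 37.2%, 20.3% higher and 16.8% lower). *Ccnd1*, *Cdk4* and *Cdkn2a* were called higher against all 3 kinds.

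Of the 3 fold changes of *Ccnd1*, that against T- and NK-like cells was the highest. T- and NK-like cells held 2.47, 18.9 and 43.9 CPM in MYC spinal and 3.57, 2.39 and 8.73 CPM in eRT, below every tumor cell value, and the log2 fold change was 5.44 ± 0.52 (edgeR adjusted p = 8.36e-10). Against macrophage- and monocyte-like cells, which held 6.73 to 268 CPM, it was 1.99 ± 0.39 (edgeR adjusted p = 7.52e-05), and against neutrophil-like cells 4.25 ± 0.67. *Cdkn2a* was at 0 to 20.9 CPM in macrophage- and monocyte-like cells and at 4.93 to 27.4 CPM in T- and NK-like cells, with log2 fold changes of 4.12 ± 0.42 and 3.54 ± 0.46.

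*Ccnd2* and *Ccnd3* took different places in the immune-like kinds. T- and NK-like cells carried *Ccnd2* at 227 to 679 CPM, within the range of tumor cells (0.04 ± 0.67, edgeR adjusted p = 0.980), while macrophage- and monocyte-like cells carried 17.3 to 150 CPM. Tumor cells exceeded these in 5 of 6 tumors, by 2.30 ± 0.70 on the log2 scale (edgeR adjusted p = 0.00806), but not in 593, with 45.0 CPM beside 150 CPM, and the groups overlapped. *Ccnd3* was lower in tumor cells than in neutrophil-like cells (-1.63 ± 0.52, edgeR adjusted p = 0.0135) and than in T- and NK-like cells (-1.25 ± 0.42, edgeR adjusted p = 0.0182). Leaving out 1232 ended the *Ccnd3* call against neutrophil-like cells (-0.84, edgeR adjusted p = 0.366), and leaving out 1232, 568 or 593 that against T- and NK-like cells (edgeR adjusted p = 0.0709 to 0.123). Without 1232 the *Ccnd2* calls were lost against macrophage- and monocyte-like cells (1.66, edgeR adjusted p = 0.059) and neutrophil-like cells (2.14, edgeR adjusted p = 0.128), the latter also without 1177 (0.0852). Without TMM factors the *Ccnd3* call against neutrophil-like cells was lost (-0.80, edgeR adjusted p = 0.222), as the median of all genes then moved from 0.28 to 1.09 and the called genes from 2304 higher and 1900 lower to 4647 and 1151.

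*Cdk6* was below T- and NK-like cells by -1.36 ± 0.50 (edgeR adjusted p = 0.0333), with 69.8 to 162 CPM in those cells, and among the named kinds its highest levels were in myeloid progenitor-like cells, at 264 and 271 CPM in 1177 and 1232. *Cdk4* exceeded the levels of neutrophil-like cells, 16.7 to 64.4 CPM, by 2.26 ± 0.33 (edgeR adjusted p = 2.64e-06). *Cdkn1a* was higher than in T- and NK-like cells (18.7 to 118 CPM) by 3.13 ± 0.48 (edgeR adjusted p = 3.7e-06) and close to the 208 to 1166 CPM of macrophage- and monocyte-like cells (0.09 ± 0.43, edgeR adjusted p = 0.903). *Ccne1* was higher than in macrophage- and monocyte-like cells by 1.81 ± 0.58 (edgeR adjusted p = 0.0122), and *Cdkn1b* and *Mdm2* were called against none of the 3 kinds. The *Cdk6* call was lost without any 1 of the tumors but 593 (edgeR adjusted p = 0.0608 to 0.146), the *Cdk4* call against T- and NK-like cells without 1172 or 593 (0.098 and 0.0702), and the *Ccne1* call without 1148 (1.41, edgeR adjusted p = 0.0935).

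Pathway genes called in these fits numbered 17 higher and 8 lower of 55 tested against macrophage- and monocyte-like cells, 15 and 9 against neutrophil-like cells and 11 and 6 against T- and NK-like cells, by edgeR, to be read against the shares of all genes above. *Phlda3* was higher by 5.38 ± 0.46, 5.62 ± 0.81 and 4.85 ± 0.51 in that order, and *Wee1* by 2.36 ± 0.41, 3.46 ± 0.66 and 2.64 ± 0.48. *Rb1* was lower by -2.28 ± 0.34, -3.15 ± 0.43 and -1.29 ± 0.40, and *Cdkn2d* by -1.23 ± 0.38, -3.39 ± 0.46 and -1.35 ± 0.39.

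**Figure D3:**
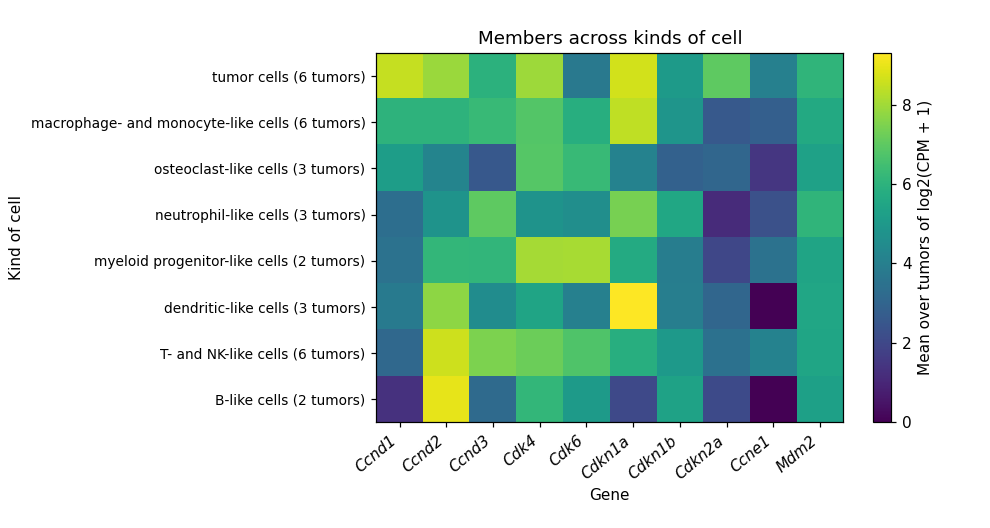
Mean over tumors of log2(CPM + 1) for each member (columns) in tumor cells and 7 kinds of immune-like cell (rows, with the number of tumors that gave at least 10 such cells). Within their columns, *Ccnd1* and *Cdkn2a* are brightest in the tumor cell row, at 8.48 and 6.98, and *Cdk6* in the row of myeloid progenitor-like cells, at 8.07.

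*Cycling against resting cells.* To ask which members follow the cell cycle, cells were called cycling when 65 mitosis and replication genes, none of them a member or pathway gene, made up at least 0.2% of their UMIs, with at least 2 such UMIs. Every other cell was called resting, so resting cells include cells in G1 and were not shown to have left the cell cycle. By this gate 12, 5 and 271 tumor cells of MYC spinal 1172, 1177 and 1232 (12.6%, 33.3% and 18.7%) and 10, 22 and 67 of eRT 1148, 568 and 593 (14.7%, 10.9% and 10.7%) were cycling, with 187 of the 2456 tumor cells near the gate, between 0.15% and 0.25%. Leukocyte markers summed to 125 to 607 CPM in cycling and 62.9 to 621 CPM in resting tumor cells. Cycling tumor cells were deeper than resting ones in 1232 (median 7179 against 4376 UMIs) and in 593 (6252 against 4297.5 UMIs). MYC spinal 1177, with 5 cycling cells, stayed out of the fit, which tested 6774 genes and called 11.0%, 4.95% higher and 6.04% lower.

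Of the 10 members, 0 were called higher in cycling tumor cells and 1 lower, *Cdkn1a*. Its resting and cycling levels were 105 and 199 CPM in MYC spinal 1172 and 759 and 625 CPM in 1232, and 1170 and 694, 517 and 89.5 and 930 and 580 CPM in eRT 1148, 568 and 593. Cycling cells were lower in 4 of 5 tumors, all but 1172, and the groups overlapped (log2 fold change -0.70 ± 0.22, edgeR adjusted p = 0.0284). The call was lost in 11 of 19 alternatives, among them DESeq2 (adjusted p = 0.418), the exclusion of any 1 of the 3 eRT (0.0996 to 0.115) and cells thinned to 1000 UMIs (0.160), with the direction kept in all 19. The 6 fibroblast markers summed to less in cycling than in resting tumor cells of 4 of these 5 tumors as well. Their sums were 770 against 2291 CPM in 568, where *Col1a1*, *Col3a1* and *Pdgfra* had no UMI in cycling cells, 1478 against 2293 CPM in 1172, 2046 against 2520 CPM in 593, 485 against 664 CPM in 1232 and 1549 against 1436 CPM in 1148. Their part in the *Cdkn1a* result, and that of the 2 tumor cell clusters of 568, was not tested.

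*Ccne1* and *Cdk4* were not called in cycling tumor cells. Both also stayed uncalled with DESeq2, without the replicate block, with Seurat's phase calls and in thinned cells. *Ccne1* was at 96.5 and 242 CPM in resting and cycling cells of 1172, at 36.7 and 50.0 in 1232, 69.0 and 48.4 in 1148, 5.30 and 35.8 in 568 and 3.92 and 17.7 in 593 (0.74 ± 0.27, edgeR adjusted p = 0.0704). *Cdk4* was higher in cycling cells of 4 of 5 tumors, all but 568, where the cycling cells held 5 UMIs (0.48 ± 0.19, edgeR adjusted p = 0.103). Both were called without TMM factors (edgeR adjusted p = 0.0492 and 0.0199), *Ccne1* also without 1148 (0.032), without the highest Scrublet scores (0.97, edgeR adjusted p = 0.00878), with clusters at resolution 0.4 (0.0367) and with a gap between cycling and resting cells (0.0298). *Cdk4* was called without 568 (edgeR adjusted p = 0.004), where *Ccnd2* was called lower as well (-0.56, edgeR adjusted p = 0.0375). At the main gate *Ccnd1* differed by 0.12 ± 0.25, *Ccnd2* by -0.47 ± 0.21, *Ccnd3* by -0.41 ± 0.23 and *Cdkn2a* by -0.04 ± 0.22. *Ccnd1* was called higher in cycling tumor cells both with the gate lowered to 0.1% (0.56, edgeR adjusted p = 0.0403) and with the gate raised to 0.4% (0.86, edgeR adjusted p = 1.2e-08), where *Cdk4* was also called higher (0.58, edgeR adjusted p = 0.00204) and *Ccnd2* lower (-0.66, edgeR adjusted p = 0.00285). *Cdkn1a* was called at neither gate. At the main gate *Ccnd1* differed by -0.23 without 1232 and by -0.35 without 593, neither called. A tumor needs at least 10 cells in each class to enter a fit, and 1148 and 1172 had 10 and 12 cycling tumor cells at the main gate. With the gate at 0.4%, 1086 of 9188 genes tested were called, and the part of tumors leaving that fit was not tested.

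Under the same gate, 2 of 10 members were called higher and 1 lower in cycling immune-like cells, where 19.6% of 11259 genes were called, 9.52% higher and 10.1% lower. Of the immune-like cells, 8.90%, 44.7% and 31.0% were cycling in MYC spinal 1172, 1177 and 1232. In eRT 1148, 568 and 593 these shares were 27.1%, 7.36% and 16.1%. *Ccne1* rose from 5.44, 4.32 and 4.60 CPM in resting to 58.4, 15 and 26.7 CPM in cycling cells of the MYC spinal tumors, and from 3.52, 2.18 and 0.829 CPM to 28.6, 53 and 26.7 CPM in the eRT. Every cycling value lay above every resting one (2.99 ± 0.32, n = 6, edgeR adjusted p = 0.000143), and how many of all genes separate like this was not counted. *Cdk4* rose in 6 of 6 tumors, from a range of 53.8 to 154 CPM to one of 144 to 320 CPM (1.09 ± 0.13, edgeR adjusted p = 0.000344), and *Cdkn1b* fell in 6 of 6, from a range of 16.7 to 64.6 CPM to one of 10.8 to 36.0 CPM (-0.84 ± 0.12, edgeR adjusted p = 0.00107). Without TMM factors the called genes moved from 1072 higher and 1133 lower to 1571 and 570, with all 3 member calls kept. *Ccnd2* was called lower without eRT 568 (-0.50, edgeR adjusted p = 0.0151) and *Cdkn2a* higher without MYC spinal 1232 (1.3, edgeR adjusted p = 0.031). Cycling and resting immune-like cells were not matched by kind, and levels differ between kinds. Mean *Cdk4* was 298 CPM in myeloid progenitor-like and 32.8 CPM in neutrophil-like cells, and mean *Cdkn1b* 14.6 and 51.7 CPM. The part of the mixture of kinds in these calls, and in the interaction test that uses the same classes, was not tested.

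**Figure D4:**
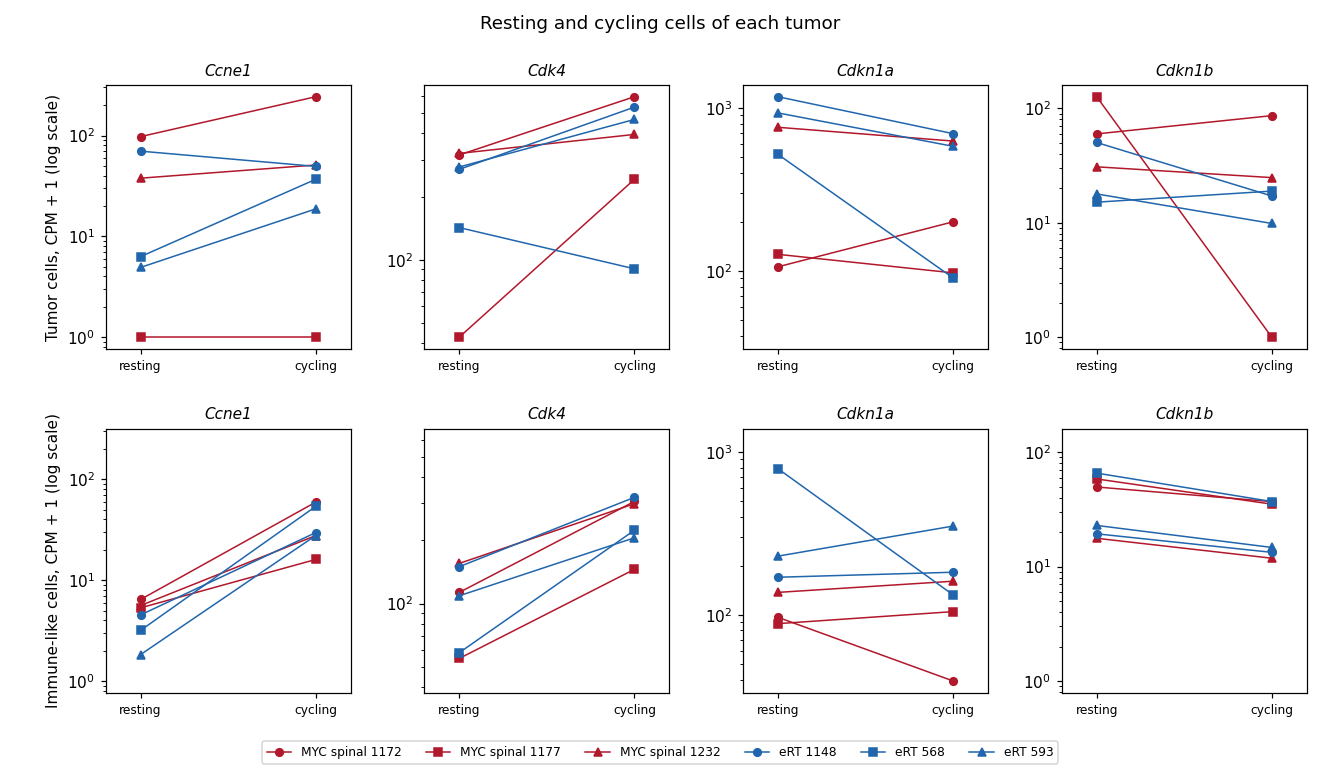
Levels in resting and cycling cells, as CPM + 1 on log axes, for 4 members in tumor cells (top) and immune-like cells (bottom), with 1 line for each of the 6 tumors. In immune-like cells all lines of *Ccne1* and *Cdk4* rise and all of *Cdkn1b* fall, while resting tumor cells of 1172, 1232 and 1148 start at 36.7 CPM or more of *Ccne1*. MYC spinal 1177 is drawn but was not in the tumor cell fit.

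Whether the 2 kinds of cell differed in these effects was tested as an interaction term over the 5 tumors with all 4 classes. The block of this main fit was the tumor alone, so the difference between the kinds was taken as equal in all tumors. None of the 10 members was called by edgeR, where 3 of 11150 genes were (0.0269%, 0% higher and 0.0269% lower, with 365 genes and 1 member at an unadjusted p under 0.05), nor by DESeq2, which called 6 genes. That member was *Ccne1*, whose cycling effect in tumor cells minus that in immune-like cells was -2.67 ± 0.67 (unadjusted p = 0.000896, edgeR adjusted p = 0.776). With a block for each tumor and kind of cell, a fit added after the data were seen, the difference was -2.37 ± 0.43 and was called (edgeR adjusted p = 0.0205, 12 genes called in all). *Cks1b*, a CDK-binding subunit that takes part in the turnover of p27, was called in both fits, at -2.06 ± 0.30 (edgeR adjusted p = 0.0166) in the main one. Its call was lost without 1172, 1148 or 568, as edgeR then called 0 genes in the main fit (299 to 384 genes at an unadjusted p under 0.05). In a simulation of the main interaction fit with 200 genes changed by a log2 fold of 2, edgeR recovered 26% of them. A member without a call here may therefore still differ in its cycling effect.

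Resting cells were also compared alone. Among them, *Ccne1* was higher in tumor than in immune-like cells by 2.79 on the log2 scale (edgeR adjusted p = 0.00098). Resting tumor cells held 96.5 CPM of *Ccne1* in 1172, 36.7 in 1232 and 69.0 in 1148, against 5.44, 4.60 and 3.52 CPM in their resting immune-like cells. In 568 and 593 the resting tumor cells held 5.30 and 3.92 CPM (3 and 10 UMIs), against 2.18 and 0.829 CPM, and in 1177 they held none.

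Other pathway genes were called under the gate in both kinds of cell. Since the gate picks cells by mitosis and replication genes, higher levels of other such genes follow from it and are no separate result. In tumor cells 8 of 42 pathway genes tested were higher and 4 lower (all genes 4.95% and 6.04%), led by the mitotic cyclins *Ccna2* (4.42 ± 0.34) and *Ccnb1* (4.38 ± 0.31), the phosphatase *Cdc25c* (4.07 ± 0.50) and *Cdkn3* (3.27 ± 0.29), a phosphatase that acts on CDKs. Lower were *Btg2* (-1.38 ± 0.23) and *Bbc3* (-0.88 ± 0.28), both p53 targets, *Cdkn2b* (-1.06 ± 0.31) and *Wee1* (-0.79 ± 0.25). With DESeq2 these counts were 8 and 1. In immune-like cells 23 of 60 were higher and 4 lower (all genes 9.52% and 10.1%), led by *Ccna2* (5.09 ± 0.48), *Cdc25c* (4.99 ± 0.44) and *Ccnb1* (4.97 ± 0.18), with the E2F list at 8 of 16 higher, among them *E2f7* (4.21 ± 0.51), *Mybl2* (4.04 ± 0.47) and *E2f8* (3.09 ± 0.47).

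*eRT against MYC spinal tumor cells.* Between the subtypes, 0 of 10 members were called by edgeR, and 0 of 5618 genes (0%), with 187 genes and 1 member at an unadjusted p under 0.05. DESeq2 called 18 genes and 0 members. The member was *Mdm2*, at 95.8 ± 35.4 CPM (SD, n = 3) in eRT and 49.5 ± 12.4 CPM in MYC spinal tumor cells (log2 fold change 1.29 ± 0.54, unadjusted p = 0.0441, edgeR adjusted p = 0.999). *Cdkn1a* was at 821 ± 318 and 318 ± 352 CPM (1.5 ± 0.80), with MYC spinal 1232 inside the eRT range. In a simulation of this comparison with 200 genes changed by a log2 fold of 2, edgeR recovered 1.5% of them, against 94% for cycling against resting tumor cells, so differences of that size were mostly not detectable with 3 tumors a side.

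The remaining members overlapped between the subtypes. *Ccnd1* was at 441 ± 299 CPM in MYC spinal and 397 ± 233 CPM in eRT, *Ccnd2* at 481 ± 483 and 388 ± 486 CPM and *Cdk4* at 275 ± 122 and 248 ± 96.5 CPM. *Cdkn2a* was at 185 ± 160 and 113 ± 35.8 CPM, and its highest value, 368 CPM, belonged to MYC spinal 1232. For *Ccnd2*, *Ccne1*, *Ccnd1* and *Cdkn1b* the sign of the difference turned with Cre strain as a covariate.

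*Genes with the most similar pattern.* Over 34 sums of a tumor and kind of cell, Pearson's r of log2(CPM + 10) named the genes most like each member, as a description, since sums of 1 tumor share a library. For *Cdkn2a* these were *Hcfc1r1* (0.91), *Rab34* (0.91) and *Phlda3* (0.90), and for *Cdk4* they were *Pycrl* (0.95), *Pebp1* (0.94) and *Mrpl42* (0.91). *Ccnd1* was most like *Cmtm3*, *Cd151* and *Dst* (0.83 each), *Ccnd2* like *Sesn3* (0.79) and *Ccnd3* like *Def6* (0.77). *Ccne1* was nearest to *Cdk1* (0.75), *Cdkn1a* to *Ifitm2* (0.77), *Cdk6* to *Gtf2f2* (0.76), *Cdkn1b* to *Nr3c1* (0.73) and *Mdm2* to *S100a6* (0.66).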

How the data were processed

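Per the labels, fresh tumors were minced, dissociated with Accutase, freed of red cells, sorted for vital cells and run on the 10x Chromium 3′ system. The submitters' processing notes name Cell Ranger 2.0.2 and the mm10 build. The deposited values are raw UMI counts per gene and cell, 1 table per tumor, listing genes found in at least 3 cells, and all 6 tables hold 16557 genes together. Per-sample columns not used numbered 0. The tables number their cells, so barcodes shared between libraries were not counted.

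Cells under 200 genes or over 25% mitochondrial UMIs were dropped. Each subtype was clustered in Seurat 5.3.0 (2000 variable genes without members and pathway genes, 30 components, resolution 0.8), and kinds were named from marker lists ("-like"). A cluster with an immune name, or with at least 6 of 8 leukocyte markers each in at least 25% of its cells, was immune-like. Any other cluster counted as tumor cells when its *Smarcb1* UMIs were under 0.25 of the number that immune-like cells would give, 10 or more being expected, so *Smarcb1* is no result. The leukocyte conditions were set after the clusters were seen. No doublets were removed, since Scrublet called 21 of 22163 cells and had not worked, and an alternative left out the 843 highest scores.

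UMIs were summed per tumor and kind of at least 10 cells and tested with edgeR 4.0.16 (quasi-likelihood, TMM factors, filterByExpr, Benjamini-Hochberg over all genes tested, called at adjusted p under 0.05), with the tumor as block, since both kinds of cell come from the same animal. DESeq2 1.42.0 was an alternative. The edgeR test was run on simulated counts with known changes in each comparison but those against neutrophil-like and against T- and NK-like cells. Clustering, the naming of cells and the sign-flip test were not tested on simulated data. Intervals and limits of 3 UMIs cover counting error only. UMIs at 3′ ends are not levels per length, and the D cyclin shares are shares of UMIs, which also depend on how well each gene's 3′ end is captured.

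The members and lists were chosen with earlier results of these data known. Named were all members, up to 3 called genes per pathway list and direction with the largest fold change, and the 3 genes most like each member (at least 20 CPM on average, sums of at least 50000 UMIs). Alternatives added after seeing the data were a *Smarcb1* limit of 0.5, a gap between cycling (0.2%) and resting (0.1%) cells, and the block for each tumor and kind of cell.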

Additional observations from a re-analysis of the deposited data

Results flagged for a closer look

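Cells that were neither tumor nor immune-like entered no main comparison, and some of their member levels lay above those of that tumor's immune-like cells. An alternative that set tumor cells against all cells not taken as tumor called 2 members, and 3594 of all 12293 genes tested. In eRT 593, 75 fibroblast-like cells not taken as tumor held 221 CPM of *Ccnd1*, 267 of *Ccnd2*, 93.4 of *Ccnd3*, 242 of *Cdk4*, 1002 of *Cdkn1a* and 191 of *Cdkn2a*, where the tumor cells of 593 held 401, 45.0, 31.6, 304, 878 and 150 CPM of these genes. In MYC spinal 1232, 316 unnamed cells held 466 CPM of *Ccnd1*, 536 of *Ccnd2*, 253 of *Cdk4*, 440 of *Cdkn1a* and 272 of *Cdkn2a*. In MYC spinal 1172, 26 unnamed cells held 121 CPM of *Ccnd1*, 276 of *Cdkn1a* and 66.2 of *Cdkn2a*, and in 1177, 226 unnamed cells held 182 CPM of *Ccnd2* and 414 of *Cdk6*. Some of these clusters had less *Smarcb1* than immune-like cells, at 0.296 of the expected number in the fibroblast-like cells and 0.526 and 0.40 in the unnamed clusters of 341 and 227 cells.

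*Cks1b*, a pathway gene, had a smaller cycling effect in tumor than in immune-like cells, by -2.06 on the log2 scale in the test of the difference itself. It rose in both, by 1.10 in tumor cells and 3.02 in immune-like cells. The call of the difference was lost without 1172, 1148 or 568.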

How the results depend on the processing

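The calls of *Ccnd1* and *Cdkn2a* in tumor against immune-like cells were kept in 17 of 17 alternatives (log2 fold change 2.16 to 2.70 and 3.30 to 4.11), as were those of *Ccne1* and *Cdk4* in cycling immune-like cells. The *Cdkn1b* call there was kept in 16 of 17 and lost without the replicate block (-0.89, adjusted p = 0.57). The *Cdkn1a* call in cycling tumor cells was kept in 8 of 19 (-0.90 to -0.25). The number of members called there was 1, and 3 without TMM factors, 0 with DESeq2, 0 without the replicate block, 2 at resolution 0.4, 0 at a *Smarcb1* limit of 0.5, 3 with the gate at 0.4%, 0 with phase calls, 0 with thinned cells and 2 with the gap between classes, while with the gate at 0.1% it was 1, *Ccnd1* in place of *Cdkn1a*. Of all genes, 786 of 6774 were called there without TMM factors and 740 of 7240 at resolution 0.4. With the gate at 0.4% these were 1086 of 9188, and with the gap between classes 714 of 6428. Against immune-like cells DESeq2 called 4 members in place of 2, and 4166 of all 12236 genes in place of 3876. Without the replicate block 3 were called in place of 5 against macrophage- and monocyte-like cells and 3 in place of 6 against T- and NK-like cells. Of all 10276 genes, 3107 were then called in place of 4294 and 2861 in place of 3822. In the difference of cycling effects, 1 was called in place of 0 with a block for each tumor and kind of cell. Leaving out 1 tumor gave 0 to 2 members in cycling tumor cells, 3 to 6 against neutrophil-like cells, 2 to 3 against immune-like cells, 4 to 6 against macrophage- and monocyte-like cells and 4 to 5 against T- and NK-like cells. Of all genes, 346 to 853 were then called in cycling tumor cells (6194 to 6615 tested). Against immune-like cells 2975 to 3787 were called (11895 to 12474 tested). For the 3 single kinds, in the order above, the calls were 3145 to 4182, 3626 to 4829 and 3210 to 4249 (9958 to 11460 tested). In each of these the cause was not tested.

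Uncalled values that changed sign were, in cycling tumor cells, *Ccnd1* (-0.32 with DESeq2), *Cdkn2a* (0.12 with DESeq2, 0.085 without the block, 0.067 at resolution 0.4, 0.013 at the *Smarcb1* limit of 0.5, 0.054 with phase calls), *Ccnd3* (0.035 with the gate at 0.1%, 0.10 with phase calls), *Mdm2* (0.49 and 0.23 with the gate at 0.1% and 0.4%) and *Ccnd2* (0.017 with phase calls). Against immune-like cells it was *Cdkn1b* (0.21 without TMM factors, 0.022 with stricter cell filters). Between subtypes they were *Cdk4* (-0.21 without TMM factors), *Cdk6* (-1.58 at resolution 0.4) and *Ccnd1* (0.027 with every gene, 0.13 without the highest Scrublet scores, 0.40 and 0.017 at resolution 0.4 and 1.6, 0.14 in resting cells), and with Cre strain *Ccnd1* (0.55), *Ccnd2* (0.93), *Ccne1* (0.30) and *Cdkn1b* (0.080). In cycling immune-like cells with the gate at 0.4% they were *Ccnd1* (-0.045) and *Cdk6* (-0.014). In the difference of cycling effects they were *Ccnd2* (0.011 with DESeq2), *Cdkn1a* (-0.055) and *Mdm2* (0.0026) with the block for each kind. Against single kinds they were *Ccnd3* (0.018, macrophage- and monocyte-like, without TMM factors), *Cdkn1b* (-0.26, without the block), *Mdm2* (0.34, neutrophil-like, without TMM factors), *Cdk6* (-0.022, without the block), *Cdkn1b* (0.023, T- and NK-like, DESeq2) and *Ccnd2* (-0.0015 with every gene and -0.0012 without the block). As a mean over cells, the *Ccnd2* share differed by 2.09 points.

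Without 1 tumor each, sign changes spanned, in cycling tumor cells, *Ccnd1* -0.35 to 0.44, *Cdk6* -0.21 to 0.19 and *Cdkn2a* -0.26 to 0.22. In cycling immune-like cells they spanned *Ccnd1* -0.029 to 0.39, *Ccnd3* -0.049 to 0.20 and *Cdk6* -0.048 to 0.29. In the difference of cycling effects they spanned *Ccnd2* -0.27 to 0.038, *Cdk6* -0.016 to 0.37, *Cdkn1a* -0.12 to 0.89 and *Mdm2* -0.46 to 0.22. Between subtypes they spanned *Ccnd1* -0.43 to 0.87, *Ccnd2* -1.66 to 1.06, *Ccnd3* -1.46 to 0.64, *Cdk4* -0.17 to 0.38 and *Cdkn2a* -0.86 to 0.62. Against immune-like cells they spanned *Ccnd2* -0.16 to 1.35 and *Cdkn1b* -0.32 to 0.27, with the *Ccnd2* share at -12.7 to 2.60 points. Against single kinds they spanned *Cdkn1a* -0.26 to 0.41 and *Cdkn1b* -0.17 to 0.41 (macrophage- and monocyte-like), *Cdk6* -0.16 to 0.72 and *Mdm2* -0.83 to 0.021 (neutrophil-like), and *Ccnd2* -0.65 to 0.35 and *Cdkn1b* -0.53 to 0.16 (T- and NK-like).

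Over all genes, those called in cycling tumor cells numbered 744, and 349 with DESeq2, 58 without the block, 354 and 346 without MYC spinal 1232 and eRT 593, 421 with the gate at 0.1%, 454 with phase calls and 69 with thinned cells. In cycling immune-like cells they numbered 2205, and 335 without the block, 1025 with thinned cells and 1115 without eRT 1148, and against immune-like cells 3876, and 2174 without the block. In the difference of cycling effects they numbered 3, and 6 with DESeq2, 0 without the block (165 genes at an unadjusted p under 0.05), 0 to 1 without 1 tumor and 12 with a block for each tumor and kind of cell. Without TMM factors the calls against immune-like cells moved from 1876 higher and 2000 lower to 2363 and 1665, and against macrophage- and monocyte-like cells from 2093 and 2201 to 3059 and 1752. Depth limits MYC spinal 1177 most, with 15 tumor cells.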
